A study of Homo sapiens with 10 samples.

Results

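The 34 genes described here belong to the NRF2 antioxidant and detoxification program, and they were chosen by name. They are the sensor KEAP1, the transcription factor NRF2 (gene NFE2L2), its partner MAFG, and genes for glutathione and thioredoxin metabolism, NADPH supply and detoxifying reductases and hydrolases. Each of the 34 symbols was found once among the 46427 genes in the deposited tables. Poly(A) RNA of H460 and A549 cells, established human lung cancer cell lines, was sequenced in 10 libraries. The H460 libraries were 3 of untreated parental cells in 2D culture, 1 of cisplatin-resistant (CR) cells, 2 of paclitaxel-resistant (PR) cells, 1 of doxorubicin-resistant (DR) cells and 1 of tumor spheroid (TS) cells. The A549 libraries were 1 of 2D culture and 1 of TS cells, neither given a drug. The drugs were 4 µM cisplatin, 5 nM paclitaxel and 0.5 µM doxorubicin, each given for 3 days, and the surviving cells were kept 3 more days without drug. These cells are therefore survivors of 1 exposure and not lines selected over months. TS cells, named CTC in the sample labels, were grown in suspension in serum-free medium with growth factors, whereas 2D cells had serum, so that medium and attachment cannot be told apart in the TS comparisons. No label says that replicates came from separate cultures, and the spread between them may be technical.

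KEAP1 holds NRF2 in the cytoplasm and hands it to a CUL3 ubiquitin ligase for degradation. Oxidants and electrophiles modify cysteines of KEAP1, after which NRF2 accumulates, enters the nucleus and binds antioxidant response elements (AREs) as a dimer with a small MAF protein. The targets make glutathione, reduce peroxides and thiols, supply NADPH and clear reactive carbonyls, quinones and epoxides. Both H460 and A549 are known to carry KEAP1 mutations that leave NRF2 active without an inducer. The RNA level of NFE2L2 or KEAP1 therefore does not report NRF2 activity, which was not measured.

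The ARE core is the element these genes are known to share. It was searched as TGACNNNGC on both strands in promoters from RefSeq on GRCh38.p14, each covering 250 bases before to 50 bases after a gene start. Promoters were found for 26 of the 34 genes. Of these, 11 genes (42.3%) held the core, in 12 of their 35 promoters (34.3%), against 4687 of all 35116 promoters (13.3%). A match is a description of letters and not a bound site, and a promoter without one may have an element outside this window. Shown first are the cores of the genes that differed between the cell groups below, then those of KEAP1, the sensor itself. The core is in capitals and the strand shown is the one on which it reads TGACNNNGC.
EPHX1: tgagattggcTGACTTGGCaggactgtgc
GCLM: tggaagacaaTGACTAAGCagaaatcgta
ME1, before the start: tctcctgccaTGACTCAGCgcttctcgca
ME1, after the start: gctgctggggTGACGGTGCtgactgcagc
PIR: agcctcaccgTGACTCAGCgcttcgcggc
GPX2: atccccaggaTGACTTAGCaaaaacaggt
CBR1: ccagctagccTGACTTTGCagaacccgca
KEAP1, nearer the start: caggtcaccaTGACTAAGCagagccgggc
KEAP1, farther from the start: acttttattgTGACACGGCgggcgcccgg
The EPHX1 window lies at chr1:225825266-225825294 on the plus strand, in 1 of its 3 promoters. The core lies 78 to 70 bases before that promoter's start, which is inside the gene, as the gene begins at position 225810124. The GCLM window lies at chr1:93909446-93909474 on the plus strand, 34 to 26 bases before the start of this minus-strand gene. The ME1 windows are at chr6:83431170-83431198 on the minus strand, with the core 137 to 129 bases before the start, and at chr6:83431022-83431050 on the plus strand, with the core after the start. The PIR window is at chrX:15493289-15493317 on the plus strand and follows the start, within the first transcribed bases. The GPX2 window is at chr14:64942849-64942877 on the plus strand, 122 to 114 bases before the start, and the CBR1 window is at chr21:36069855-36069883 on the minus strand, 159 to 151 bases before the start. The KEAP1 windows are at chr19:10502784-10502812 on the plus strand and chr19:10502807-10502835 on the minus strand, both in 1 of its 2 promoters. These cores were found in genes that were higher (EPHX1) and lower (GCLM, ME1, PIR) in drug-resistant cells.

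Between 59499787 and 89541774 reads were counted on genes per library. Levels are given as FPKM, the reads on a gene scaled by transcript length and library size, and differences as log2 fold changes with standard errors (SE) from edgeR's quasi-likelihood test on the counts, adjusted by Benjamini-Hochberg over all genes tested. Of 5 epithelial markers, the keratins KRT8 and KRT18 were at 190.4 FPKM or above in every library. Both were called higher in A549 (2.42, adjusted p = 0.0044, and 2.68, adjusted p = 0.00161), at 1445.9 and 3866.1 FPKM for KRT8 and 1341.1 and 3229.3 FPKM for KRT18 in 2D and TS A549 cells, and their part in the A549 results was not tested. KRT19 was at 138.3 FPKM or above in each H460 library, but at 3.57 and 68.3 FPKM in 2D and TS A549 cells. CDH1 was at 0.0266 FPKM or below in each H460 library and at 9.29 and 11.9 FPKM in A549, and EPCAM was at 0.114 FPKM or below in H460 and at 0.923 and 1.04 FPKM in A549, so that these markers were absent or low in H460. None of 4 lung alveolar markers and none of 3 endothelial markers reached 1 FPKM in any library. Of 4 leukocyte markers only CD14 did. It was at 2.78, 8.34 and 9.49 FPKM in parental cells, 14.6 in CR, 11.5 and 17.1 in PR and 11.8 in DR cells, without overlap or a call (0.99, adjusted p = 0.0568), and at 2.37 and 10.1 FPKM in 2D and TS A549 cells. Its part in the results was not tested. Of 4 fibroblast markers COL1A1 and LUM did. COL1A1 was between 0.0848 and 0.193 FPKM in the parental libraries, 0.783 in CR, 6.51 and 6.26 in PR and 1.41 in DR. COL1A1 was called higher in drug-resistant cells (4.48, SE 0.77, adjusted p = 0.00175) and in PR (5.24, SE 0.39, adjusted p = 0.000163), and its part in the drug results was not tested. In both comparisons COL1A1 passed the filter only through drug-resistant libraries, so that its calls carry little information. LUM was between 0.237 and 2.76 FPKM in the parental cells, 2.69 in CR, 6.99 and 3.07 in PR, 0.362 in DR and 26.6 in TS H460 cells, and at 0.0506 and 0.858 in 2D and TS A549 cells. LUM was called lower in A549 (-4.83, adjusted p = 0.0168) and in no other comparison, and its part in the results was not tested either. In that comparison LUM passed the filter only through H460, so that its call carries little information. The deposited library names take 2 forms, with and without dashes. Parental replicate 2, CR, DR and PR replicate 2 have the dashed form, so those of the 34 genes called in drug-resistant cells, and NQO1 and PRDX1, are also given within each form, as PR replicate 1 against parental replicates 1 and 3 and as CR, PR replicate 2 and DR against parental replicate 2. Markers and the further genes of the pathway are not given within each form. All TS and A549 libraries have the undashed form.

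Together the 34 genes took between 1.76% and 2.20% of the summed TPM, which is FPKM rescaled to the same total in each library, in the 3 parental libraries. The share was 2.37% in CR, 2.01% and 2.14% in PR and 2.77% in DR cells. It was 1.88% in TS H460 cells, 2.06% in 2D A549 cells and 2.87% in TS A549 cells. CR, DR and TS A549 thus lay above every parental library, while both PR libraries lay within the parental range. The highest parental share, 2.20%, was that of replicate 2, of the dashed form like CR and DR. In H460 the 4 thioredoxin and peroxiredoxin genes held the largest part of any role, between 0.60% and 1.05% in 2D cells. In A549 the 8 aldo-keto and carbonyl reductases did, with 0.78% in 2D and 1.37% in TS cells. In bulk RNA, a change in the fraction of cells that express a gene and a change in RNA per cell cannot be told apart.

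**Figure D1:**
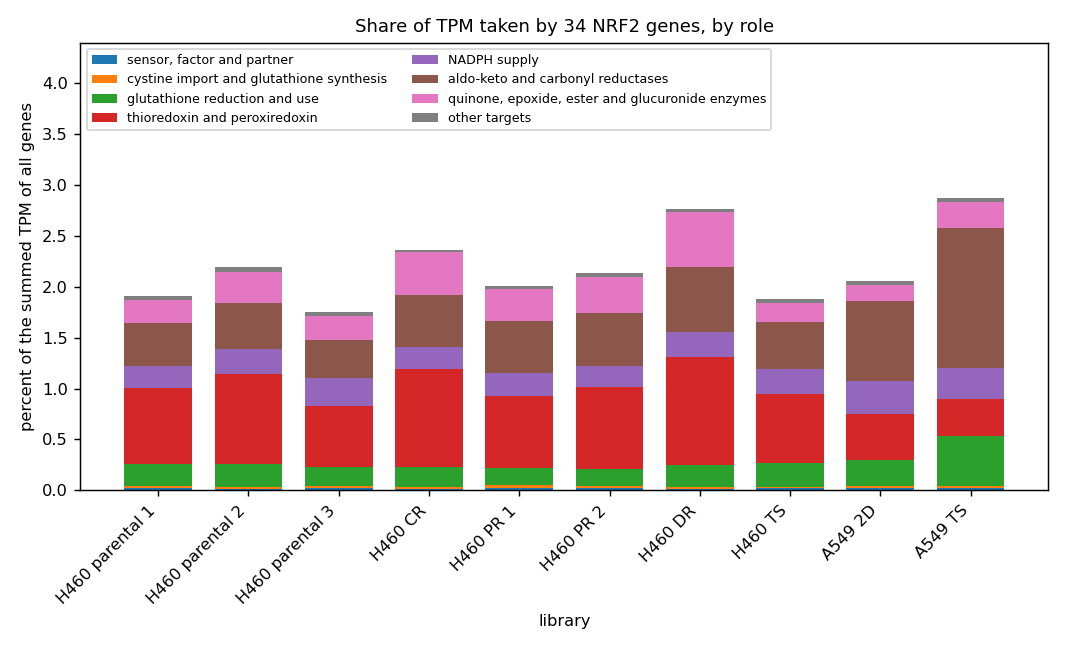
Stacked bars give, for each of the 10 libraries, the percent of the summed TPM taken by the 34 genes, split by role. DR H460 (2.77%) and TS A549 (2.87%) are the tallest, and the brown part, the aldo-keto and carbonyl reductases, is the largest part in both A549 libraries.

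The sensor, factor and partner were tested in every comparison and called in none. NFE2L2 was at 42.1, 42.8 and 32.6 FPKM in the parental libraries, 34.5 in CR, 51.9 and 50.3 in PR, 34.4 in DR and 35.9 in TS H460 cells, and at 31.3 and 24.4 in 2D and TS A549 cells. The PR libraries lay above the parental range, CR, DR and TS H460 lay inside it, and both A549 libraries lay below it. The fitted difference of PR from parental cells was 0.34 (SE 0.22, adjusted p = 0.297) and that of A549 from H460 was -0.39 (SE 0.20, adjusted p = 0.21), so neither passed the test. KEAP1 was at 33.6, 23.6 and 29.8 FPKM in parental cells, 27.8 in CR, 29.9 and 37.5 in PR, 25.2 in DR, 31.5 in TS H460, 30.1 in 2D A549 and 31.9 in TS A549 cells. Every library except PR replicate 2 lay inside the parental range. MAFG, a small MAF protein, was at 23.9, 17.3 and 20.4 FPKM in parental cells, 16.0 in CR, 22.4 and 25.0 in PR, 15.5 in DR, 17.0 in TS H460, and 20.3 and 22.8 in 2D and TS A549 cells. None of the 3 genes had an unadjusted p under 0.05 in any of the 4 comparisons, and DESeq2 called none of them.

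**Figure D2:**
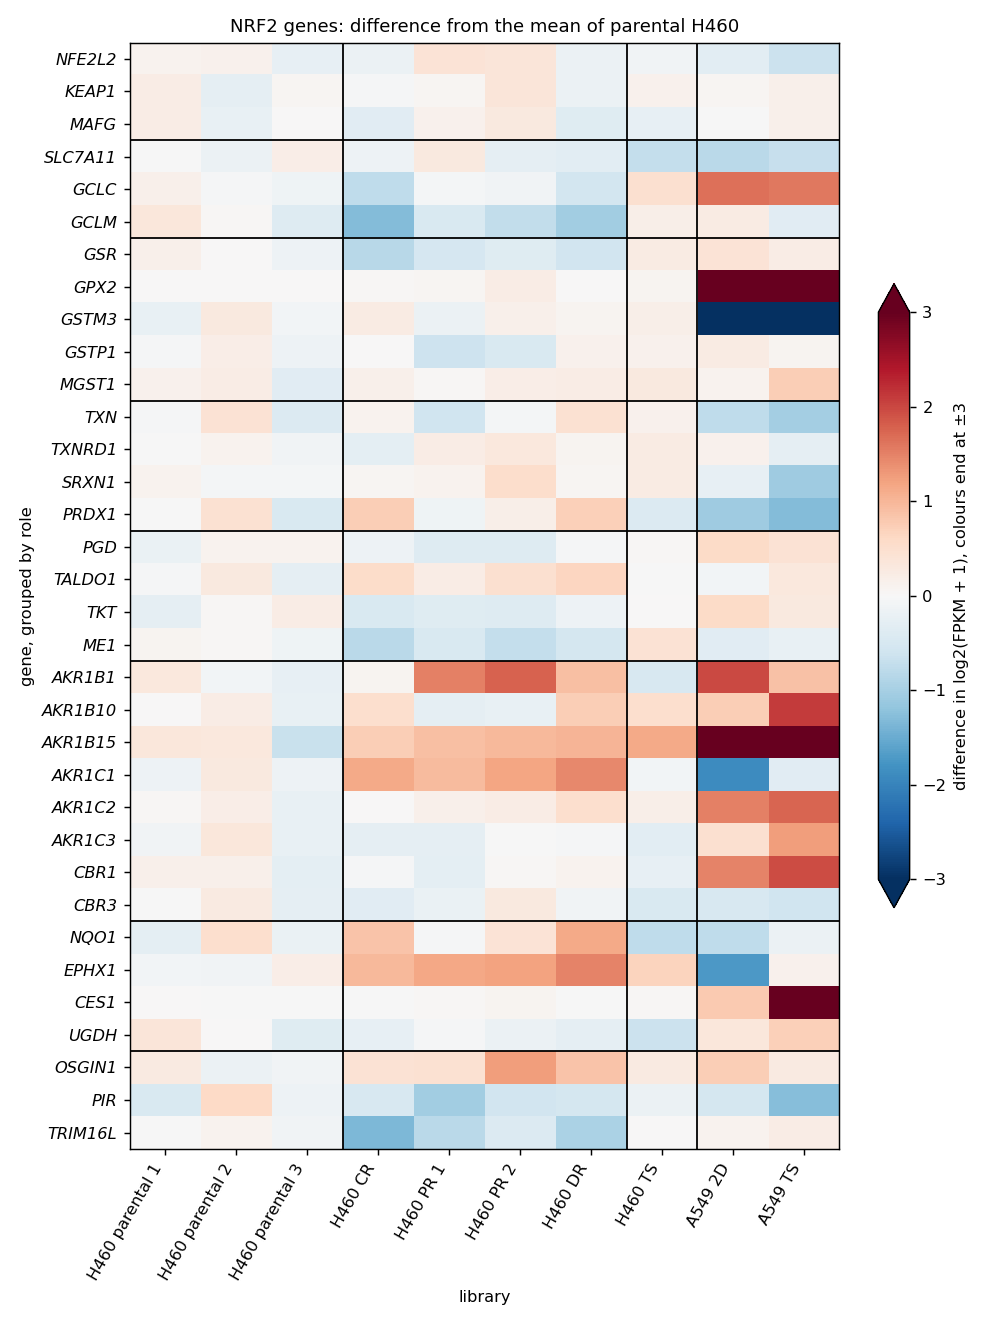
Each cell shows the difference in log2(FPKM + 1) of a library (columns) from the mean of the 3 parental H460 libraries for a gene (rows, grouped by role), with colours ending at ±3. The top rows, NFE2L2, KEAP1 and MAFG, are pale throughout, while AKR1C1 and EPHX1 are red in all 4 drug-resistant libraries and GPX2, AKR1B15 and GSTM3 reach the ends of the colour scale in both A549 libraries, as CES1 does in TS A549.

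The first comparison asked how the genes differed between the 4 drug-resistant and the 3 parental H460 libraries. The 3 drugs were taken as samples of drug-resistant cells, so the spread includes differences between drugs. The genes moved in both directions. AKR1B1, AKR1B15, AKR1C1, EPHX1 and OSGIN1 were higher, and GCLM, GSR, ME1, PIR and TRIM16L were lower. GPX2 and CES1 did not reach 1 FPKM in 2 of these libraries and were not tested, which left 32 genes. Of these 5 were called higher, where 17.6% of all 12755 genes tested were, and 5 lower, where 17.1% were. The share of called genes, 31.2%, was thus close to that of all genes. The median log2 fold change of the 32 genes was 0.01, and that of all genes tested was 0.0019. In 4 genes every drug-resistant library was above every parental one (21.7% of all genes) and in 5 every one was below (17.3% of all genes).

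**Figure D3:**
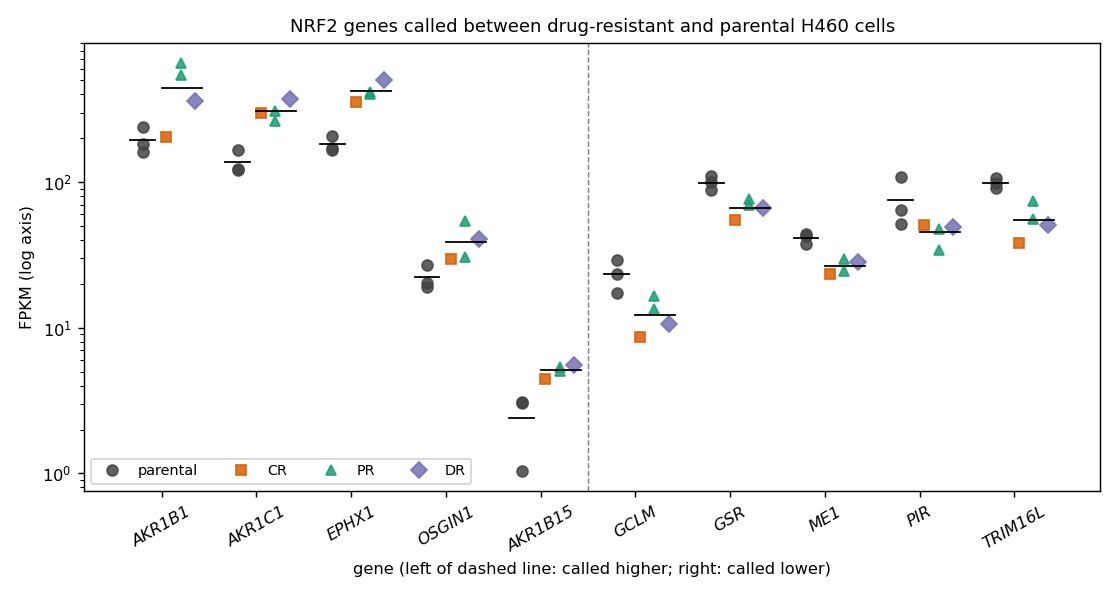
FPKM on a log axis of the 10 NRF2 genes called between drug-resistant and parental H460 cells, with 1 point per library and a line at each group mean. AKR1B1 alone has a drug-resistant library, CR at 203.4 FPKM, inside the parental range.

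Of the 5 genes called higher, 3 were aldo-keto reductases. These enzymes reduce aldehydes and ketones with NADPH, and those of the AKR1C group also act on steroids. AKR1C1 was at 122.1, 166.8 and 121.0 FPKM in parental cells, and at 297.9 in CR, 261.7 and 309.1 in PR and 369.0 in DR cells. Each drug-resistant library was above each parental one. The means were 136.6 ± 26.1 (SD, n = 3) and 309.4 ± 44.5 (SD, n = 4), and the log2 fold change was 1.19 (SE 0.23, adjusted p = 0.00311). Within the undashed libraries the difference in log2(FPKM + 1) was 1.10 and within the dashed it was 0.95. Its neighbour AKR1C2, at 101.5 to 135.7 FPKM in parental and 119.4 to 169.6 in drug-resistant cells, was not called (0.19, SE 0.19, adjusted p = 0.454), and neither was AKR1C3, a prostaglandin and steroid reductase (-0.17, SE 0.19, adjusted p = 0.516). The 3 AKR1C genes lie side by side on chromosome 10 between positions 4963415 and 5107686 (RefSeq, GRCh38), and share sequence. Of the 100-base windows of the longest transcript, 17.4% in AKR1C1, 32.9% in AKR1C2 and 4.98% in AKR1C3 are also found in another AKR1C gene. How reads shared between genes were counted is not given in the sources used here, so levels within this cluster are uncertain.

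AKR1B1, aldose reductase, was at 240.1, 181.3 and 161.8 FPKM in parental cells, 203.4 in CR, 547.2 and 656.1 in PR and 358.4 in DR cells. The PR and DR libraries lay above the parental range and CR lay within it. The log2 fold change over all drugs was 1.18 (SE 0.34, adjusted p = 0.022), with 1.47 and 1.00 within the undashed and dashed libraries. Without parental replicate 2, parental replicate 3 or PR replicate 2 the adjusted p was 0.0765, 0.0604 and 0.057. AKR1B15 was at 3.10, 3.04 and 1.04 FPKM in parental cells, 4.43 in CR, 5.01 and 5.39 in PR and 5.58 in DR cells, which is 213 to 599 counts in parental and 673 to 1279 counts in drug-resistant libraries. All drug-resistant libraries were above the parental ones (0.97, SE 0.33, adjusted p = 0.0425), but the call was lost without parental replicate 2 (adjusted p = 0.0608), parental replicate 3 (0.052), CR (0.0718), PR replicate 2 (0.0659) or DR (0.101), with the form of library name as a covariate (0.105), with a count filter of 10 (0.0767) and without a filter (0.107). Within the undashed and dashed libraries the differences were 1.06 and 0.60. AKR1B10, a retinal and aldehyde reductase that lies between those genes on chromosome 7, was the member with the second highest mean. It was at 878.6, 1021.2 and 753.0 FPKM in parental, 1236.4 in CR, 733.4 and 751.6 in PR and 1460.8 in DR cells. CR and DR were above the parental range and both PR libraries were below it, and the gene was not called (0.25, SE 0.30, adjusted p = 0.53). Of the 100-base windows of AKR1B15, 1.12% are also found in AKR1B10, and AKR1B10 was far more abundant. How such reads were counted is not given, so the AKR1B15 levels are uncertain. The carbonyl reductases were not called, CBR1 at 32.1 to 44.6 FPKM in parental and 32.6 to 42.9 in drug-resistant cells, and CBR3 at 9.89 to 15.04 and 9.47 to 15.1 FPKM.

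EPHX1, the microsomal epoxide hydrolase, was at 170.6, 166.9 and 206.0 FPKM in parental cells, 354.6 in CR, 403.0 and 415.6 in PR and 504.3 in DR cells. No drug-resistant library overlapped the parental range. Parental cells averaged 181.2 ± 21.6 FPKM (SD, n = 3) and drug-resistant cells 419.4 ± 62.4 FPKM (SD, n = 4), and the log2 fold change was 1.18 (SE 0.21, adjusted p = 0.00179), with 1.10 and 1.33 within the undashed and dashed libraries. NQO1, the quinone reductase often used as a marker of NRF2 activity, was at 665.8, 1150.8 and 713.8 FPKM in parental cells, 1479.6 in CR, 798.7 and 1090.2 in PR and 1790.1 in DR cells. CR and DR lay above the parental range and both PR libraries within it. NQO1 was not called (0.62, SE 0.33, adjusted p = 0.162), and parental replicate 2, of the dashed form like CR and DR, was the highest parental library. Within the undashed and dashed libraries NQO1 differed by 0.21 and 0.31. UGDH, which makes the UDP-glucuronate used in glucuronidation, was between 73.4 and 121.5 FPKM in parental and between 78.5 and 92.6 in drug-resistant cells, inside the parental range, and was not called. CES1, a carboxylesterase, had 0 to 8 counts in each H460 library, and 19.7% of its 100-base windows are also found in CES1P1 or CES1P2.

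Of the 8 genes of glutathione metabolism and cystine import, 7 of which were tested, GCLM and GSR were lower. GCLM, the modifier subunit of glutamate-cysteine ligase, was at 29.4, 23.5 and 17.3 FPKM in parental cells and at 8.67 in CR, 16.5 and 13.4 in PR and 10.6 in DR cells. All drug-resistant libraries were below the parental ones, with a log2 fold change of -0.91 (SE 0.22, adjusted p = 0.0103) and differences of -0.43 and -1.06 within the undashed and dashed libraries. GSR, glutathione reductase, fell from between 88.7 and 109.4 FPKM in parental cells to 54.9 in CR, 69.9 and 76.3 in PR and 65.9 in DR cells (-0.58, SE 0.17, adjusted p = 0.0208), again without overlap and with -0.49 and -0.60 within the undashed and dashed libraries. That call was lost without parental replicate 1 (adjusted p = 0.0588), CR (0.0645) or DR (0.0537). The catalytic subunit GCLC was at 16.8, 14.8 and 13.9 FPKM in parental, 8.48 in CR, 14.6 and 14.1 in PR and 10.0 in DR cells. CR and DR were below the parental range and PR was within it, and GCLC was not called (-0.38, SE 0.19, adjusted p = 0.151). SLC7A11, the cystine importer, was between 41.0 and 53.8 FPKM in parental and between 37.0 and 57.7 in drug-resistant cells and was not called. The glutathione S-transferase GSTP1, the fifth of the members by mean level, was at 529.4, 625.4 and 493.6 FPKM in parental, 551.1 in CR, 355.0 and 399.8 in PR and 601.5 in DR cells. Both PR libraries lay below the parental range and the other drugs within it, without a call (-0.20, SE 0.23, adjusted p = 0.529). GSTM3 and MGST1, glutathione S-transferases, were not called either. GSTM3 was between 20.6 and 30.03 FPKM in parental and 21.4 and 28.9 in drug-resistant cells, and MGST1 between 197.4 and 291.6 and between 256.0 and 293.1 FPKM.

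None of the 4 thioredoxin and peroxiredoxin genes was called in drug-resistant cells or had an unadjusted p under 0.05. PRDX1, a peroxiredoxin that removes hydrogen peroxide and the member with the highest mean, was at 1731.0, 2411.7 and 1274.0 FPKM in parental, 2901.0 in CR, 1608.3 and 1970.6 in PR and 2875.8 in DR cells (0.39, SE 0.30, adjusted p = 0.33), with differences of 0.11 and 0.08 within the undashed and dashed libraries. CR and DR lay above the parental range and PR within it. TXN, thioredoxin, was at 784.1, 1090.0 and 607.0 FPKM in parental, 863.1 in CR, 529.6 and 770.1 in PR and 1099.7 in DR cells. PR replicate 1 lay below the parental range and DR just above it. The fitted difference was -0.01 (SE 0.28, adjusted p = 0.987). TXNRD1, which reduces thioredoxin, was between 367.4 and 424.0 FPKM in parental and between 318.5 and 489.9 in drug-resistant cells, and SRXN1, which repairs overoxidised peroxiredoxins, was between 261.7 and 297.0 in parental and between 285.6 and 397.4 in drug-resistant cells. Of the 100-base windows of SRXN1, 84.5% are also found in a transcript of AL121758.1, so that its levels are uncertain.

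Of the 4 NADPH-supplying enzymes ME1 was lower. ME1, cytosolic malic enzyme, was at 43.9, 42.6 and 37.7 FPKM in parental and 23.3 in CR, 29.9 and 24.6 in PR and 28.3 in DR cells. The groups did not overlap, and the log2 fold change was -0.65 (SE 0.16, adjusted p = 0.00924), with -0.43 and -0.73 within the undashed and dashed libraries. The pentose phosphate enzymes PGD, TALDO1 and TKT overlapped between the groups. In parental and drug-resistant cells PGD was between 374.3 and 465.7 and between 331.9 and 419.5 FPKM, TALDO1 between 167.1 and 247.2 and between 234.9 and 316.9, and TKT between 313.3 and 443.5 and between 275.8 and 341.2. None was called, TALDO1 with a positive fitted value (0.47, SE 0.19, adjusted p = 0.0807) and PGD and TKT with negative ones (-0.25 and -0.37).

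Among the other targets OSGIN1, an oxidative stress-induced growth inhibitor, was at 26.8, 19.2 and 20.4 FPKM in parental and 29.8 in CR, 30.6 and 53.6 in PR and 40.7 in DR cells (0.79, SE 0.23, adjusted p = 0.0231), with no overlap. Within the undashed and dashed libraries the differences were 0.37 and 1.03. Of the 100-base windows of OSGIN1, 7.42% are also found in a transcript of AC009119.2. The call was lost without parental replicate 2 (adjusted p = 0.0872), PR replicate 2 (0.058) or DR (0.0537), with the form of library name as a covariate (0.0675), with a count filter of 10 (0.0501) and without a filter (0.0721). PIR, pirin, was at 51.9, 109.1 and 64.5 FPKM in parental and 51.0 in CR, 34.2 and 47.9 in PR and 49.0 in DR cells (-0.72, SE 0.25, adjusted p = 0.0441). The groups did not overlap, although CR lay just under the lowest parental library, and the parental spread (30.1, SD, n = 3) came mostly from replicate 2. Within the undashed and dashed libraries PIR differed by -0.74 and -1.13. The PIR call was lost in 6 of the 7 fits that left out a library, with an adjusted p of 0.196 without parental replicate 2, 0.0621 without parental replicate 3, 0.0521 without CR, 0.0994 and 0.0928 without PR replicates 1 and 2, and 0.0689 without DR. It was also lost with upper-quartile scaling (0.0771) and with limma at a pseudocount of 1 (0.0653) or 0.1 (0.0661). TRIM16L, a TRIM16-like gene annotated as a transcribed pseudogene, was at 98.4, 106.3 and 91.4 FPKM in parental and 38.1 in CR, 55.5 and 74.3 in PR and 50.8 in DR cells. It did not overlap (-0.84, SE 0.20, adjusted p = 0.00851), with -0.76 and -1.01 within the undashed and dashed libraries, but 29.8% of its 100-base windows are also found in TRIM16 and another transcript.

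CR and DR have 1 library each, and were compared without a test with the parental mean in log2(FPKM + 1), counting genes past 2-fold among those that passed the filter. In CR, AKR1C1 was past 2-fold higher (1.13), where 5.77% of all genes were, and GCLM (-1.30) and TRIM16L (-1.35) were past 2-fold lower, where 7.0% were. In DR, EPHX1 (1.48), AKR1C1 (1.44), NQO1 (1.13) and AKR1B15 (1.02) were past 2-fold higher, with 5.68% of all genes, and GCLM (-1.04) was lower, with 5.64%. Against parental replicate 2 alone, of the same name form, NQO1 (1790.1 against 1150.8 FPKM) and AKR1B15 (5.58 against 3.04) in DR were not past 2-fold. EPHX1 and AKR1C1 in DR still were. In CR, AKR1C1 (297.9 against 166.8 FPKM) was not past 2-fold against that library, while EPHX1 (354.6 against 166.9) was.

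PR is the drug with replicates. It was compared with the same 3 parental libraries, so that the results are not independent of those above. AKR1B1, AKR1C1 and EPHX1 were higher among the 32 genes tested (11.5% of all 12593 genes were called higher), and 0 were lower (10.3% of all genes). By unadjusted p under 0.05, 4 were higher and 5 were lower, and DESeq2 called 4 lower. Of all 12593 genes, 4614 had an unadjusted p under 0.05, and DESeq2 called 1818 lower. AKR1B1 averaged 601.6 ± 76.9 FPKM (SD, n = 2) against 194.4 ± 40.8 (SD, n = 3), a log2 fold change of 1.61 (SE 0.24, adjusted p = 0.00247). AKR1C1 differed by 1.01 (SE 0.26, adjusted p = 0.0208) and EPHX1 by 1.11 (SE 0.24, adjusted p = 0.0117). With PR replicate 1 left out the adjusted p was 0.0879 for AKR1C1 and 0.0724 for EPHX1, and with PR replicate 2 left out 0.222 and 0.134, whereas AKR1B1 was called each time. In these fits PR has 1 library, which is assumed to vary like the parental ones. The median log2 fold change of the 32 genes was -0.05, and that of all genes -0.02. GCLM (-0.67, SE 0.26, adjusted p = 0.096) and ME1 (-0.66, SE 0.23, adjusted p = 0.0703) did not pass the test in PR alone. ME1 was called lower with DESeq2 (adjusted p = 0.021), with a count filter of 10 (0.0329) and without a filter (0.0403), and GCLM was called lower without parental replicate 3 (0.0387).

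The TS comparison asked whether the genes differed between suspension and 2D culture, with the cell line as a covariate and 33 genes tested, CES1 having passed 1 FPKM in TS A549 alone. Only GPX2 was called higher, where 0.11% of all 12674 genes were, and 0 were called lower, where 0.0395% of all genes were. By unadjusted p under 0.05, 4 of the genes were higher and 1 was lower, and DESeq2 also called 0 lower. Of all 12674 genes, 788 had an unadjusted p under 0.05, and DESeq2 called 145 lower. The median log2 fold change of the 33 genes was 0.06, and that of all genes -0.01. GPX2, a glutathione peroxidase of epithelia, had 0 counts in each parental library and 6 in TS H460 cells, but 3152 counts (44.8 FPKM) in 2D and 79530 counts (1045.0 FPKM) in TS A549 cells. Its fitted log2 fold change of 4.71 (SE 0.42, adjusted p = 0.0116) thus rests on A549, where TS was 23.3-fold above 2D with 1 library each. GPX2 passed the filter only through A549. The only spread between replicates came from parental libraries at 0 counts, so that this call carries little information. The call was lost with limma on log2(FPKM + 1) (adjusted p = 0.755) and without parental replicate 2 (0.0743) or 3 (0.0615). Without either A549 library GPX2 reached 1 FPKM in fewer than 2 libraries and was not tested.

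Each line has 1 TS library, and differences within a line were taken without a test. In H460, AKR1B15 was past 2-fold higher in TS cells (1.14 in log2(FPKM + 1), from between 1.04 and 3.10 FPKM in parental to 6.11 FPKM), where 1.5% of all genes were, and no member was past 2-fold lower (1.92% of all genes). EPHX1, at 287.5 FPKM, was above the parental range and differed from the parental mean by less (0.67). NQO1, at 480.5 FPKM, was below that range and differed from the mean by -0.77. In A549, GPX2, EPHX1, AKR1C1, AKR1B10 and AKR1B15 were past 2-fold higher (4.76% of all genes) and AKR1B1 was past 2-fold lower (2.49% of all genes). EPHX1 was at 54.3 FPKM in 2D and 198.7 in TS A549 cells (1.85), AKR1C1 at 35.8 and 105.9 (1.54), AKR1B10 at 1454.5 and 3730.9 (1.36) and AKR1B15 at 38.4 and 89.3 (1.20). AKR1B1 was at 754.7 and 353.2 FPKM (-1.09), and in H460 its level in TS cells, 137.9 FPKM, was also below the parental range. CES1, left out of the count as it was not tested, was at 0.74 FPKM (108 counts) in 2D and 24.1 FPKM (3806 counts) in TS A549 cells. The other genes stayed within 2-fold in A549.

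**Figure D4:**
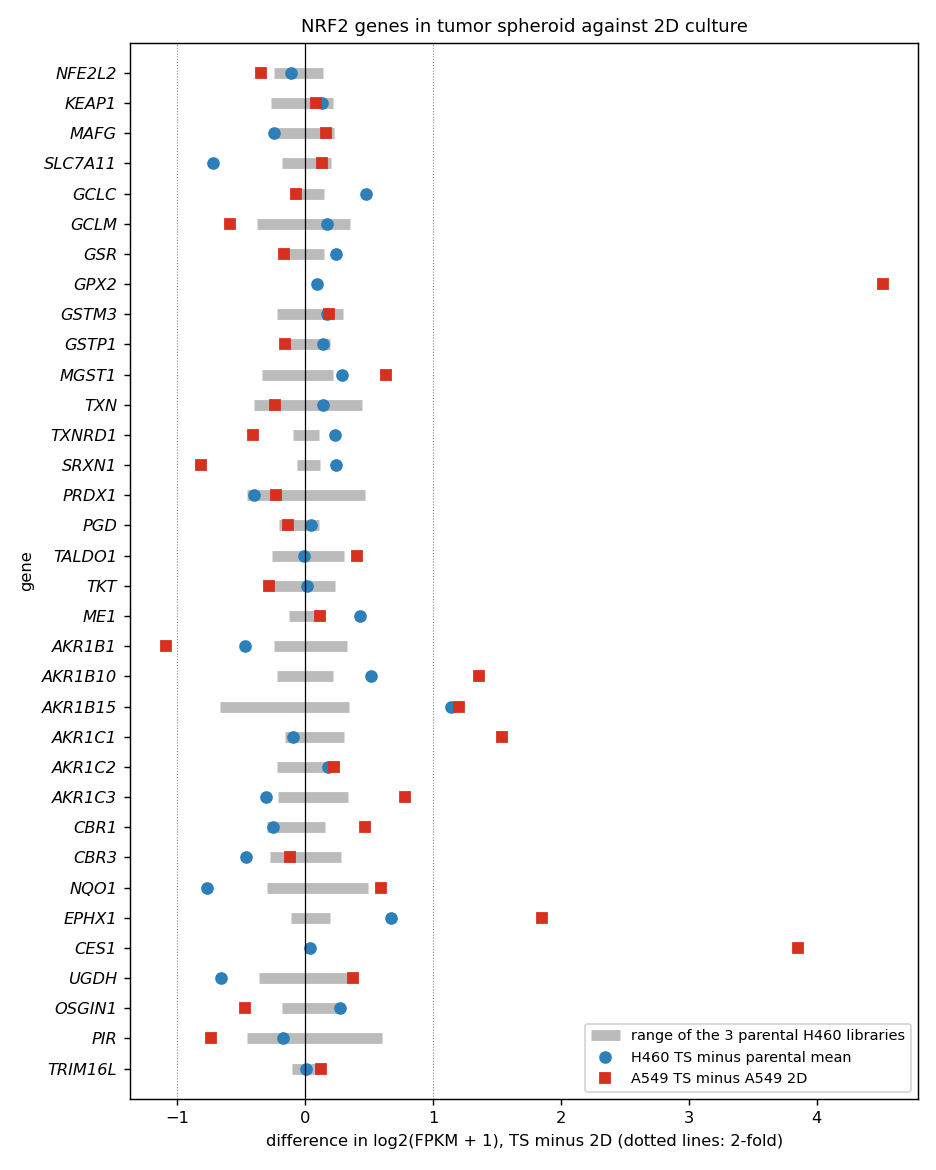
The difference in log2(FPKM + 1) between TS and 2D culture for each gene, in H460 (circles, against the mean of 3 parental libraries) and A549 (squares, 1 library against 1). Grey bars give the range of the parental libraries around their mean and have no counterpart in A549. GPX2 (4.51) and CES1 (3.85) lie far to the right in A549 only, and AKR1B15 lies past 2-fold in both lines.

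Both lines are known to carry KEAP1 mutations, and the last comparison set the 2 A549 libraries against the 4 libraries of untreated H460 cells, with culture as a covariate. The lines differ in many other ways, and a part of their KEAP1 mutations in these differences cannot be told apart. Of the 33 genes tested, 7 were called higher in A549 (13.3% of all 12674 genes) and 1 lower (9.15% of all genes). The median log2 fold change was 0.16, and that of all genes was -0.0037. The aldo-keto and carbonyl reductases gave 5 of the 7.

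AKR1B15 was at 38.4 and 89.3 FPKM in 2D and TS A549 cells, against 3.10, 3.04 and 1.04 in parental and 6.11 in TS H460 cells (3.83, SE 0.41, adjusted p = 0.000983). AKR1B10 was at 1454.5 and 3730.9 FPKM in A549 and between 753.0 and 1252.1 in those 4 H460 libraries, without overlap (1.10, SE 0.31, adjusted p = 0.0425). The AKR1B10 call was lost when any of the 6 libraries was left out, with adjusted p between 0.0666 and 0.277, and also with upper-quartile scaling (0.0556) and without a filter (0.0552). AKR1B1 was at 754.7 and 353.2 FPKM in A549 and between 137.9 and 240.1 in H460 (1.72, SE 0.24, adjusted p = 0.00276). All 3 AKR1B genes, neighbours on chromosome 7 between positions 134442350 and 134579869 (RefSeq, GRCh38), were thus higher in A549. AKR1C2, a dihydrosteroid-converting reductase, was at 342.9 and 401.6 FPKM in A549 and between 101.5 and 135.7 in H460 (1.58, SE 0.22, adjusted p = 0.00287). AKR1C1 had a negative fitted value, at 35.8 and 105.9 FPKM against 121.0 to 166.8 FPKM, but did not pass the test (-1.14, SE 0.48, adjusted p = 0.131). The windows shared by AKR1C1 and AKR1C2 make their split uncertain, as above. CBR1 was at 113.8 and 157.6 FPKM in A549 and between 32.1 and 44.6 in H460 (1.83, SE 0.25, adjusted p = 0.00284).

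GCLC was at 49.9 and 47.3 FPKM in A549 and between 13.9 and 21.4 in H460, without overlap (1.51, SE 0.21, adjusted p = 0.00263). The call was lost without the 2D A549 library (adjusted p = 0.097), as was that of AKR1B1 (0.081). GCLM, its partner subunit, lay at 27.2 and 17.8 FPKM in A549 within the H460 range of 17.3 to 29.4. GPX2 passed the filter only through A549, so that its call carries little information. Against the floor of 3 counts in a parental library it was at least 1070-fold higher in 2D A549 cells, while the fitted log2 fold change of 13.72 depends on the prior count. GSTM3, a glutathione S-transferase, was the member called lower, at 1.37 and 1.69 FPKM in A549 and between 20.6 and 30.03 in H460 (-4.08, SE 0.29, adjusted p = 0.000216), and it passed the filter through both lines.

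**Figure D5:**
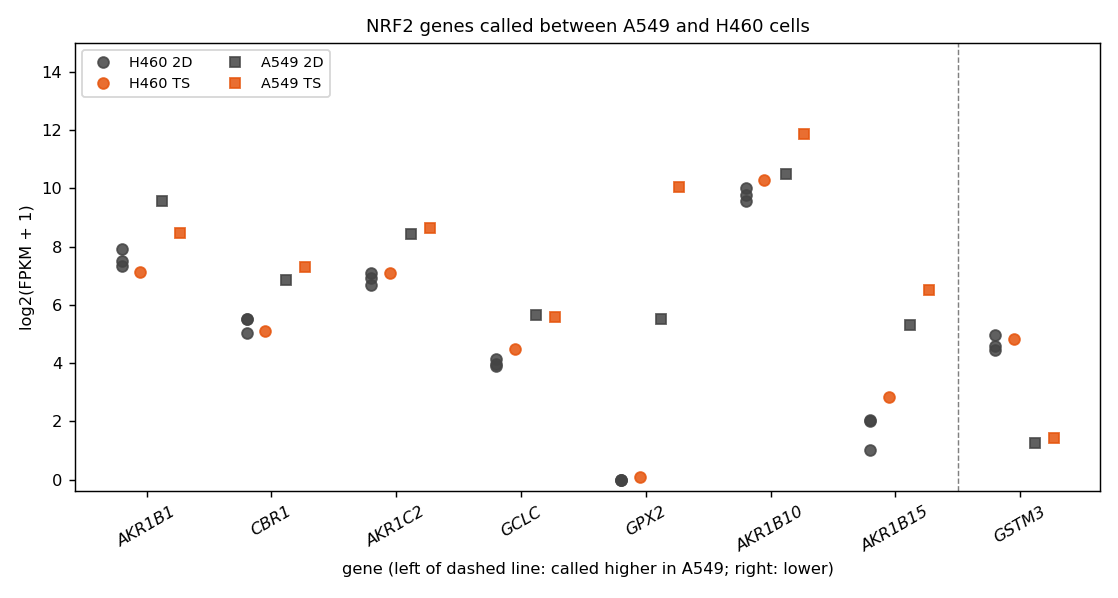
The log2(FPKM + 1) of the 8 NRF2 genes called between A549 (squares) and untreated H460 cells (circles), with 2D culture in grey and TS in orange and 1 point per library. No A549 point falls within the H460 points of the same gene.

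Among the 5 members with the highest means, AKR1B10 was called between the lines and PRDX1, TXN, NQO1 and GSTP1 were not. PRDX1 was at 831.4 and 708.2 FPKM in A549 and between 1274.0 and 2411.7 in H460 (-0.99, SE 0.31, adjusted p = 0.0588). TXN was at 470.0 and 398.7 FPKM in A549 and between 607.0 and 1090.0 in H460 (-0.91, SE 0.28, adjusted p = 0.0557). Neither gene overlapped between the lines. NQO1, at 483.1 and 726.6 FPKM in A549 and between 480.5 and 1150.8 in H460, overlapped (-0.18, SE 0.44, adjusted p = 0.799). GSTP1, at 651.4 and 582.6 FPKM in A549 and between 493.6 and 625.4 in H460, overlapped too (0.16, SE 0.22, adjusted p = 0.641). EPHX1, at 54.3 and 198.7 FPKM in A549 and between 166.9 and 287.5 in H460, overlapped through its TS library and was not called (-1.24, SE 0.38, adjusted p = 0.0565). EPHX1 was called lower with DESeq2 (adjusted p = 0.00447), with limma at a pseudocount of 1 (0.0258) or 0.1 (0.0256), with a count filter of 10 (0.0471), and without the TS H460 (0.0149) or TS A549 library (0.0222). DESeq2 also called PRDX1, TXN and AKR1C1 lower and AKR1C3 higher in A549, TXN was called without parental replicate 3 (0.0424), and AKR1C1 was called without the TS H460 (0.0141) or TS A549 library (0.0205). In every fit without an A549 library the remaining one is assumed to vary like the H460 libraries, which bears on the EPHX1 and AKR1C1 calls gained here and on the GCLC and AKR1B1 calls lost above. AKR1C3, at 640.0 and 1101.8 FPKM in A549 and between 371.0 and 578.0 in H460, did not overlap but was not called (0.95, SE 0.34, adjusted p = 0.0883), and neither was PGD, at 641.6 and 583.9 against 374.3 to 465.7 FPKM (0.51, SE 0.25, adjusted p = 0.191), nor SRXN1, at 229.1 and 129.4 against 261.7 to 324.1 FPKM (-0.64, SE 0.29, adjusted p = 0.155). The fitted values of the members not called between the lines ran from -1.24 (EPHX1) to 0.95 (AKR1C3).

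Further genes of the pathway came from 5 lists with 80 genes. Their counts are descriptions, set beside the shares of all genes given above. Among 11 regulators of NRF2, 3 were higher in drug-resistant cells and 0 were lower, with 1 lower at unadjusted p under 0.05. They were MAFK, a small MAF protein (1.59, SE 0.20, adjusted p = 0.000359), SQSTM1, the autophagy receptor that sequesters KEAP1 (1.02, SE 0.35, adjusted p = 0.0455), and BTRC, a receptor of another ligase for NRF2 (0.52, SE 0.17, adjusted p = 0.0346). MAFK was at 27.3, 33.6 and 25.9 FPKM in parental and 80.0 in CR, 100.03 and 115.9 in PR and 67.9 in DR cells, without overlap. SQSTM1 was at 684.4, 305.3 and 241.0 FPKM in parental cells, and at 606.8 in CR, 773.6 and 1138.0 in PR and 829.9 in DR cells. CR alone of these lay within the parental range. Of 22 further NRF2 targets tested, 5 were higher, led by ABCC3 (1.46, SE 0.37), ABCC1 (1.16, SE 0.33) and ALDH3A1 (1.11, SE 0.30), and 5 were lower. ABCC1 and ABCC3 are export pumps for conjugates and ALDH3A1 an aldehyde dehydrogenase. Of 24 further glutathione, peroxidase and superoxide enzymes, 3 were higher and 4 lower, led by CHAC2, which degrades glutathione (-1.74, SE 0.29), SOD2, mitochondrial superoxide dismutase (1.67, SE 0.44) and GGT1, which cleaves glutathione outside the cell (1.62, SE 0.29). Of 11 further NADPH-supplying genes, 1 was higher and 4 were lower. The differences farthest from 0 were those of IDH2, mitochondrial isocitrate dehydrogenase (-2.06, SE 0.38, adjusted p = 0.00261), RPIA, ribose 5-phosphate isomerase (-1.34, SE 0.22), and ME2, mitochondrial malic enzyme (-1.002, SE 0.23). Of 4 further reductases tested, 0 were called, with 1 higher and 1 lower at unadjusted p under 0.05. In drug-resistant cells 5843 of all 12755 genes tested passed that unadjusted cut.

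In PR alone 7 of 71 of these further genes tested were higher and 13 lower, led by IDH2 (-2.44, SE 0.50), SOD2 (2.20, SE 0.35) and CHAC2 (-1.89, SE 0.39). In TS against 2D culture 0 of 74 were called, with 6 higher and 0 lower at unadjusted p under 0.05, a cut that 788 of all 12674 genes passed. Between the lines 10 of 74 were higher in A549 and 9 lower. These counts include genes that passed the filter only through the line where they were high, CAT, AKR1E2 and UGT1A6 among the higher and PRDX2, GSTM1 and GSTM2 among the lower, which had to differ. CAT, catalase, was at 22.3 and 35.4 FPKM in 2D and TS A549 cells and at 0.0104 FPKM or below in the 4 untreated H460 libraries. PRDX2, a peroxiredoxin, was at 0.124 and 0.0877 FPKM in A549 and between 99.6 and 143.6 in H460. GSTM1 and GSTM2, of the same family as GSTM3, were at 0.361 and 0.356 and at 0.573 and 0.504 FPKM in A549, against 46.9 to 58.9 and 11.0 to 15.1 FPKM in those H460 libraries.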

How the data were processed

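The 34 genes and the further lists were chosen with earlier results of these data known. Read counts, FPKM and TPM of 10 libraries were deposited by the authors for 46427 genes. Per the labels' processing notes, the tools were bcl2fastq 1.8.4, Trimmomatic, HISAT2 2.1.0 and StringTie 2.1.3b on GRCh38. The deposited counts are whole numbers per gene without normalization. The authors' FPKM values are scaled for transcript length and library size, and the deposited TPM values are scaled further to a common total. No row lacked a gene symbol. The handling of reads shared between genes is not given in the sources used here.

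Groups were compared on the counts with the two-sided quasi-likelihood test of edgeR 4.0.16 (TMM scaling) in R 4.3.3. A gene was tested if 2 or more libraries of the fit held it at 1 FPKM or above. P-values were adjusted by Benjamini-Hochberg over all genes tested, with a threshold of 0.05. All comparisons of H460 cells share the 3 parental libraries. Groups of 1 library were compared as log2(FPKM + 1) without a test. This scale understates changes of genes near 0. The alternatives were upper-quartile scaling, DESeq2 1.42.0, limma 3.58.1 on log2 FPKM with a pseudocount of 1 or 0.1, a count filter of 10, no filter, the form of library name as a covariate, a replicate block, single parental libraries as control, and leaving out each library. Counts per library summed to 59499787 to 89541774, and members other than GPX2 and CES1 had at least 213 counts in each library, so that the number of libraries limited precision more than counting error did. The fits were tested on simulated data, and the results of that are not given here. Promoters and their positions are from RefSeq (GRCh38.p14), and the gene positions are also from RefSeq. For 32 of the 35 promoters used, the last bases were found in a GENCODE 29 transcript of the gene on the strand given, and for 0 reversed. Shared sequence was counted as 100-base windows of a gene's longest transcript found in transcripts of other genes. Of the genes, NFE2L2, KEAP1, MAFG, the 5 with the highest mean FPKM and those called with a log2 fold change of at least 1 are given in full, the rest by range or count. Of each further list at most 3 called genes per comparison are named. Figures were drawn with matplotlib 3.10.9 and the remaining values come from Python 3.11.15 with pandas 2.3.3 and numpy 2.4.6.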

Additional observations from a re-analysis of the deposited data

Results flagged for a closer look

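Within the 4 drug-resistant libraries, 2 of the 34 genes had a library set apart in log2(FPKM + 1) by Dixon's test, which chance gives in about 1 in 20 groups. SRXN1 was at 397.4 FPKM in PR replicate 2, and its gap to the nearest library took 0.909 of the range on that log2 scale. PIR was at 34.2 FPKM in PR replicate 1, with a gap of 0.842 of the range on the same scale.

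For 9 genes the TS library lay on the opposite side of 2D culture in the 2 lines, with the H460 TS library outside the range of the 3 parental libraries. Each line has 1 TS library, and the difference between the lines was not tested. The share of all genes with this pattern was not taken, so the count of 9 is a description and does not set these genes apart. In log2(FPKM + 1), the TS effect in A549 minus that in H460 was 1.35 for NQO1, 1.09 for AKR1C3, 1.03 for UGDH, 0.85 for SLC7A11 and 0.40 for MAFG, which were higher in TS A549 and lower in TS H460 cells. It was -1.06 for SRXN1, -0.64 for TXNRD1, -0.55 for GCLC and -0.41 for GSR, which were lower in TS A549 and higher in TS H460 cells.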

How the results depend on the processing

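None of the 34 genes that was called changed sign under the alternatives run, which were not run for the further genes. In drug-resistant cells, 5 genes were called higher, against 3 with a count filter of 10, 3 without a filter and 3 with the form of library name as a covariate, where AKR1B15 (adjusted p = 0.105) and OSGIN1 (0.0675) were lost. Leaving out 1 library gave 2 to 6 genes higher and 3 to 4 lower. AKR1C1, EPHX1, GCLM, ME1 and TRIM16L were called in each of these fits. TALDO1 was called higher with upper-quartile scaling (adjusted p = 0.0484), with DESeq2 (0.0482) and without PR replicate 1 (0.0494). In PR cells, 0 were called lower, against GSTP1, ME1, PIR and TRIM16L (4) with DESeq2, 4 with the count filter and 4 without a filter, and 1 with the form of library name as a covariate, and leaving out 1 library gave 1 to 4 higher and 0 to 1 lower. The replicate block, with parental replicates 1 and 2 alone, called 4 lower (GCLM, ME1, PIR and TRIM16L), and the same 4 libraries without the block called 1. The labels do not say that replicate numbers mark a batch, and the deviations of same-numbered libraries correlated at 0.155 across genes, over 2 pairs. In TS cells, limma called 0 genes higher with either pseudocount, and leaving out 1 library gave 0 to 1. Between the lines, 1 gene was lower, against 5 with DESeq2, 2 with limma at either pseudocount and 2 with the count filter, and leaving out 1 library gave 3 to 6 higher and 1 to 3 lower. AKR1B10 was lost with upper-quartile scaling (adjusted p = 0.0556) and without a filter (0.0552), and PIR in drug-resistant cells with upper-quartile scaling (0.0771) and both limma fits (0.0653 and 0.0661).

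Of genes past 2-fold in CR, 1 was higher, against 2 with a pseudocount of 0.1, 3 against parental replicate 1 alone and 4 against replicate 3 alone, and 2 were lower, against 1 with replicate 3 alone. In DR, 1 was lower, against 3 with parental replicate 2 alone and 0 with replicate 3 alone. In TS H460 cells, 1 was higher, against 0 with parental replicate 1 or 2 alone, and 0 were lower, against 1 with either. The causes of these shifts were not tested. CES1 was not tested, and GPX2 and CES1 in H460 were at or near 0 counts, so that differences there were not detectable at this depth.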
